A study of Mus musculus with 32 samples.

Results

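The collagen chain genes were taken as all genes whose symbol is Col, a number, the letter a and a number, such as Col1a1. On the 2 Affymetrix array types used, called array A and array B here, 82 probe sets were annotated to exactly 1 such gene. They covered 42 genes, of 18193 genes named by 35041 probe sets in all. The genes were split into 3 classes: 11 fibrillar genes with 21 probe sets, 6 basement membrane (type IV) genes with 12, and 25 other genes with 49. The cells were primary embryonic fibroblasts of mice (MEFs) at early passage, either wild type or Oct-1 mutant, with or without irradiation. Pou2f1 encodes Oct-1, a transcription factor of the POU family that binds the octamer motif. Each of the 4 groups held 4 replicates, giving 16 RNA extracts and, with both array types, 32 samples. Not given in the sources used here were the Oct-1 allele, the radiation dose and time, and whether replicates came from separate animals or cultures. P-values thus measure only the spread between these samples, which may be technical, and 4 arrays a group limit the precision.

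Collagens are the main structural proteins of the extracellular matrix, and each molecule is a triple helix of chains that are products of separate genes. Fibrillar collagens assemble into the banded fibrils of connective tissue. Type IV forms the network of basement membranes, and other types link, cap or anchor these structures or span the cell membrane. Fibroblasts secrete large amounts of type I and type III collagen, and type II is the collagen of cartilage.

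The values are log2 probe set values, and a difference of 1 on this scale is a doubling. Probe sets of a gene bind with different strength, so levels were compared only between samples and never between probe sets. Only probe sets whose mean reached the 40th percentile of their array type were tested, which kept 47 collagen probe sets of 27 genes: 19 fibrillar, 5 basement membrane and 23 other. All probe sets of the other 15 genes lay under this mark: Col4a3, Col4a4, Col4a6, Col6a5, Col9a1, Col9a2, Col9a3, Col10a1, Col11a2, Col13a1, Col14a1, Col17a1, Col19a1, Col20a1 and Col26a1. Of the 27 genes, 15 had several probe sets tested, so probe sets of a gene are not independent members. A probe set is called at an adjusted p under 0.05 in a limma fit of its own array type, without a block unless the replicate block is named. Both array types together gave 27084 probe sets tested, and shares of all probe sets are over these.

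The replicates fall into 2 number runs by the title numbers of the samples, replicates 1 and 2 first and replicates 3 and 4 second, each with all 4 groups. The annotation names 0 probe sets for Pou2f1, so the level of the mutated gene was not analysed here. All 10 fibroblast markers checked were measured above the filter mark, Vim at 14.75 to 14.78 in the 4 group means. Of the markers of other cell types, 0 of 6 endothelial, 3 of 7 cartilage, 2 of 5 epithelial, 2 of 5 macrophage and blood, 2 of 3 Schwann and neural, 1 of 4 bone and 1 of 5 skeletal muscle genes on the arrays passed the filter. Some of these read far above the filter mark. In the 4 group means the epithelial marker Epcam read 9.34 to 9.51 (array B) and the skeletal muscle marker Acta1 9.96 to 10.35 (array A). In RNA from whole cultures, fewer cells of a type and less RNA per cell cannot be told apart.

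The comparison of Oct-1 mutant with wild type cells, averaged over irradiation, gave more calls among the collagen genes than irradiation did. The largest were opposite: Col8a2, a chain of the short-chain type VIII network, was 2.48-fold higher in mutant cells, and Col2a1, the chain of cartilage type II collagen, was 2.41-fold lower. Col4a1 and Col4a5 of type IV, Col6a2 of type VI and Col3a1 were higher, and Col18a1 was lower. Of the 47 probe sets, 12 were called higher and 2 lower. Over all probe sets, 3.77% were called higher and 2.49% lower, 6.26% in either direction, against 29.8% of the collagen probe sets. In genes, 9 had a probe set called higher and 2 had one called lower. The median difference was 0.19 over the collagen probe sets and 0.01 over all probe sets tested.

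With the replicate number as a block, 24 collagen probe sets were called higher and 5 lower, 61.7% of the 47. The background in that fit was 7.21% called higher and 6.7% lower, 13.9% in either direction. These calls covered 14 genes higher and 4 lower. The mutant sample was above the wild type sample of the same number and irradiation state in all 8 pairs for 17 probe sets and below it in all 8 for 4. Values of the genotypes did not overlap for 3 probe sets, of Col2a1, Col4a5 and Col8a2. How many of all probe sets showed such pairs or no overlap was not counted, so these counts have no background beside them.

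**Figure D1:**
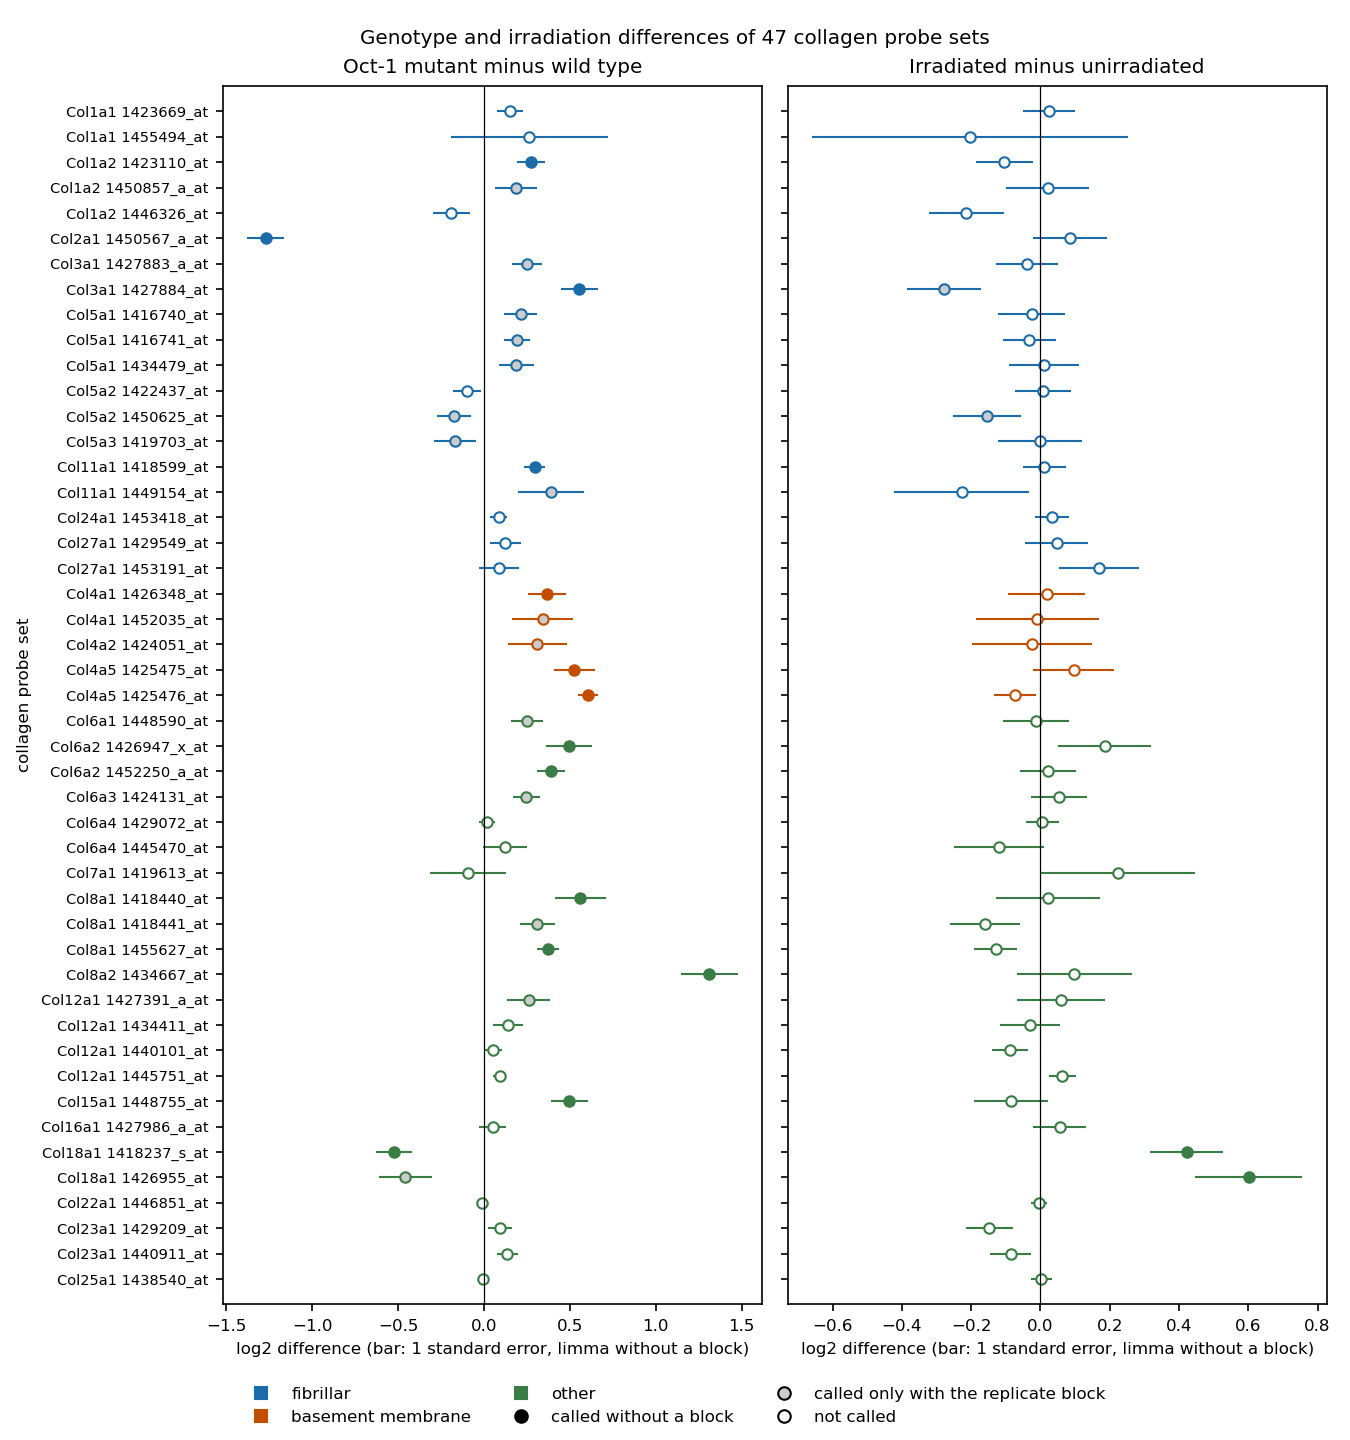
Log2 differences of the 47 tested collagen probe sets, Oct-1 mutant minus wild type on the left and irradiated minus unirradiated on the right, each averaged over the other factor, with bars of 1 standard error. Filled points were called without a block and grey points only with the replicate block; on the left most points lie above 0, Col2a1 lies at -1.27 and Col8a2 at 1.31, and on the right only the Col18a1 points are filled.

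Among the fibrillar chains, 3 probe sets were called higher and 1 lower in mutant cells, and 15 were not called. Col2a1 (1450567_a_at) read 7.17, 6.92, 7.44 and 7.28 in unirradiated and 7.16, 6.90, 7.47 and 7.70 in irradiated wild type replicates 1 to 4. In mutant replicates 1 to 4 it read 5.73, 6.01, 6.01 and 6.07 without and 5.99, 6.01, 6.07 and 6.0 with irradiation. Every mutant sample lay below every wild type sample, with the highest mutant value at 6.07 and the lowest wild type value at 6.90. The level fell by 1.27 on the log2 scale (SE 0.11, adjusted p = 9.12e-07). Of 7 cartilage markers, 3 were tested and limma called 0, with 1 at an unadjusted p under 0.05 and 0 called with the replicate block. That 1 was Sox9, the regulator of Col2a1 in cartilage, which differed by 0.14 (SE 0.04, adjusted p = 0.0936). The summed log2 level of the 7 cartilage markers was 24.4 to 25.7 in wild type and 24.6 to 25.7 in mutant samples. Their part in the Col2a1 difference was not tested.

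Col3a1, the chain of type III collagen, which is laid down with type I in soft tissues, had 2 probe sets. In 1427884_at the wild type samples read 9.92, 9.98, 10.10 and 10.09 unirradiated and 9.61, 9.62, 9.70 and 9.56 irradiated. Mutant samples read 10.03, 10.37, 10.58 and 10.85 unirradiated and 9.99, 10.13, 10.54 and 10.53 irradiated. The genotypes overlapped between 9.99 and 10.10 only, and mutant cells were 0.56 higher (SE 0.11, adjusted p = 0.00268). The other, 1427883_a_at, was 0.25 higher (adjusted p = 0.091, and 0.0032 with the replicate block).

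The 250 bases before the Col3a1 start in RefSeq (GRCm38.p6) are shown because this is the only called collagen gene whose window holds the octamer ATGCAAAT. Capitals mark the octamer, 148 bases before the start, and the TATAAA sequence, 117 bases before it.
Col3a1 (chr1:45311288-45311537, + strand): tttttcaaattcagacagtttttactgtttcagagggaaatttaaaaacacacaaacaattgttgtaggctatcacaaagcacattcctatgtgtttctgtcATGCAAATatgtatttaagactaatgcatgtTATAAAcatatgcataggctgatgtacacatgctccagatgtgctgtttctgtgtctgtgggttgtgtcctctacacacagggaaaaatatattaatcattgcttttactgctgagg
The table of RefSeq promoters, each 250 bases before to 50 bases after a start, had entries for 33 of the 42 collagen genes, with 36 windows, and Col2a1, Col1a1 and Col5a2 are among the 9 without one. Both strands were searched and overlapping matches were counted. The octamer was in 2 collagen windows (5.56%), those of Col3a1 and Col25a1, and in 1.74% of all 32851 windows. TATAAA was in 13.9% of collagen windows and 13.6% of all, and CCAAT in 36.1% and 37.4%. GGGCGG, the GC box, was in 22 collagen windows (61.1%) and in 35.7% of all. A match is a description of the letters and not a binding site.

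Of the other fibrillar chains, Col11a1, a minor fibril-forming chain, was 0.29 higher in mutant cells in 1418599_at (SE 0.06, adjusted p = 0.0051). Its samples spanned 8.92 to 9.21 with a median of 9.04 in wild type and 9.15 to 9.47 with a median of 9.40 in mutant cells. This call was lost within the first run (adjusted p = 0.121). The second Col11a1 probe set, 1449154_at, was 0.39 higher (adjusted p = 0.242, and 0.00745 with the replicate block). Col1a2, the second chain of type I collagen, was 0.27 higher in 1423110_at (SE 0.08, adjusted p = 0.0466). Wild type samples spanned 12.90 to 13.29 with a median of 13.12, and mutant samples 13.10 to 13.72 with a median of 13.34. The Col1a2 call was lost without any 1 of wild type unirradiated replicates 1, 2 and 3, wild type irradiated 1 and 2, mutant unirradiated 3 and 4 or mutant irradiated 2, 3 and 4, with adjusted p up to 0.0948. It was also lost with no filter, with median centring and with no variance trend. A further Col1a2 probe set, 1450857_a_at, was called with the replicate block alone (0.19, adjusted p = 0.00562), and 1446326_at on array B differed by -0.19 (adjusted p = 0.405).

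Col1a1, the main chain of type I collagen, was not called in either fit. Its probe set 1423669_at differed by 0.15 (adjusted p = 0.237, and 0.0747 with the replicate block). The other Col1a1 probe set, 1455494_at, differed by -0.02 in the first run and 0.55 in the second. There mutant unirradiated replicate 4 read 12.60, with the others of its group at 9.21 to 9.62. Type V chains, which nucleate and limit the width of type I fibrils, went in both directions with the replicate block. The 3 Col5a1 probe sets were 0.19 to 0.21 higher (adjusted p = 0.0106 for 1416740_at, 0.0114 for 1416741_at and 0.0191 for 1434479_at). Col5a2 (1450625_at) fell by 0.17 and Col5a3 (1419703_at) fell by 0.17 in mutant cells (adjusted p = 0.0296 and 0.0466). The second Col5a2 probe set, 1422437_at, was lower in mutant cells in 8 of 8 pairs but differed by -0.10 and was not called. Without a block limma called 0 of these 6 type V probe sets, with 2 at an unadjusted p under 0.05. Col24a1 differed by 0.09 and the Col27a1 probe sets by 0.09 to 0.13, with none called.

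All 5 tested basement membrane probe sets were higher in mutant cells, with a median of 0.37. Of these, 3 were called without a block and all 5 with the replicate block. Col4a5, a chain of the type IV network of kidney, lung and skin basement membranes, read 10.15, 10.09, 10.22 and 10.16 in unirradiated and 9.85, 9.92, 10.17 and 10.22 in irradiated wild type samples (1425476_at). Mutant samples read 10.74, 10.74, 10.78 and 10.60 unirradiated and 10.61, 10.58, 10.71 and 10.85 irradiated, all above the wild type. The difference was 0.61 (SE 0.06, adjusted p = 5.88e-06), a 1.52-fold change. Its second probe set, 1425475_at, was 0.53 higher (SE 0.12, adjusted p = 0.0076), with wild type samples at 8.76 to 9.52 (median 9.16) and mutant samples at 9.40 to 9.95 (median 9.63).

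Col4a1 and Col4a2 encode the chains of the most widespread type IV molecule, and their RefSeq promoter windows overlap head to head on chromosome 8. Col4a1 was 0.37 higher in 1426348_at (SE 0.11, adjusted p = 0.0483) and 0.34 in 1452035_at, and Col4a2 was 0.31 higher in 1424051_at. The last pair were called with the replicate block alone (adjusted p = 2.27e-05 and 8.18e-05, against 0.268 and 0.302). In 1452035_at, wild type samples read 11.90, 11.74, 12.43 and 12.44 unirradiated and 11.67, 11.74, 12.42 and 12.45 irradiated. Mutant samples read 11.93, 12.20, 12.73 and 12.81 unirradiated and 12.03, 12.22, 12.77 and 12.81 irradiated. Each mutant sample was above its same-numbered wild type sample, while replicates 3 and 4 of the wild type lay above replicates 1 and 2 of the mutant. The call of 1426348_at was lost without any 1 of replicates 1 and 2 of either wild type group, wild type irradiated replicate 4 or replicates 3 and 4 of either mutant group (adjusted p up to 0.101), and with no filter, quantile normalization, median centring or no variance trend.

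Type VI collagen forms beaded filaments around cells from chains of Col6a1, Col6a2 and Col6a3. All 4 probe sets of these genes were higher in mutant cells. Col6a2 was called in both its probe sets, 0.39 higher in 1452250_a_at (SE 0.08, adjusted p = 0.00523) and 0.50 in 1426947_x_at (SE 0.13, adjusted p = 0.0251). In 1452250_a_at, wild type samples spanned 11.13 to 11.43 (median 11.26) and mutant samples 11.38 to 11.94 (median 11.63). In 1426947_x_at the spans were 9.77 to 10.36 (median 10.14) and 10.10 to 11.07 (median 10.62). The second of these calls was lost without wild type unirradiated replicate 1 or 2, mutant unirradiated replicate 3 or mutant irradiated replicate 3 (adjusted p up to 0.057). Col6a1 and Col6a3 were each 0.25 higher and were called with the replicate block alone (adjusted p = 0.00464 and 0.00432, against 0.112 and 0.0623). Col6a4, tested in 2 probe sets on array B, was called in neither fit.

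Type VIII is a short-chain collagen of hexagonal lattices, such as the membrane under the corneal endothelium, and both its chains were higher in mutant cells. Col8a2 (1434667_at) read 5.79, 5.77, 5.96 and 5.53 in unirradiated and 5.64, 5.64, 5.58 and 6.28 in irradiated wild type samples. Mutant samples read 6.36, 6.91, 7.61 and 7.11 unirradiated and 6.88, 6.97, 7.57 and 7.27 irradiated. The genotypes did not overlap, with the highest wild type value at 6.28 and the lowest mutant value at 6.36, and the difference was 1.31 (SE 0.17, adjusted p = 0.000557). Col8a1 was higher in all 8 pairs in each of its 3 probe sets. It was called in 1455627_at on array B (0.37, SE 0.06, adjusted p = 0.00535) and in 1418440_at on array A (0.56, SE 0.15, adjusted p = 0.0241), and in 1418441_at with the replicate block alone (0.31, adjusted p = 0.0102, against 0.0658).

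In 1455627_at, Col8a1 read 11.56, 11.71, 11.61 and 11.79 in unirradiated and 11.61, 11.50, 11.64 and 11.67 in irradiated wild type samples. Mutant samples read 12.06, 12.12, 12.27 and 11.98 unirradiated and 11.94, 11.64, 12.04 and 12.02 irradiated, so that only mutant irradiated replicate 2 lay within the wild type range. The call of 1418440_at was lost without any 1 of replicates 1 and 2 of either wild type group or replicates 3 and 4 of either mutant group, with adjusted p up to 0.0543. That of 1455627_at was lost within each run (adjusted p = 0.0555 in the first and 0.115 in the second).

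Col15a1 and Col18a1 are the multiplexins, collagens with interrupted helices found at basement membranes, whose cleaved ends are restin and endostatin. They went in opposite directions. Col15a1 (1448755_at) was 0.50 higher in mutant cells (SE 0.11, adjusted p = 0.00634), with wild type samples at 5.14 to 5.77 (median 5.35) and mutant samples at 5.67 to 6.33 (median 5.89). Col18a1 was below its same-numbered wild type sample in all 8 pairs in both probe sets. In 1418237_s_at it fell by 0.52 (SE 0.11, adjusted p = 0.00381), and in 1426955_at it fell by 0.46 and was called with the replicate block alone (adjusted p = 4.98e-05, against 0.0758).

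Promoter sequences are shown for the type VIII pair, whose chains were both higher, and for Col18a1, which was lower. Each is the 250 bases before the RefSeq start (GRCm38.p6), 5′ to 3′ on the strand of the gene. Capitals mark matches to the 4 motifs on either strand, where CCGCCC and ATTGG are the GC box and the CCAAT box on the opposite strand.
Col8a2 (chr4:126286544-126286793, + strand): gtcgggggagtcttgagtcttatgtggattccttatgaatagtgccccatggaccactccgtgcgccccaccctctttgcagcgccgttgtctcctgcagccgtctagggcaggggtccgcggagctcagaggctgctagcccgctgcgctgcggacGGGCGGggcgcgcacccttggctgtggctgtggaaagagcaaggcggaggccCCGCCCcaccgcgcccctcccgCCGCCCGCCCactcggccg
Col8a1 (chr16:57754738-57754987, - strand): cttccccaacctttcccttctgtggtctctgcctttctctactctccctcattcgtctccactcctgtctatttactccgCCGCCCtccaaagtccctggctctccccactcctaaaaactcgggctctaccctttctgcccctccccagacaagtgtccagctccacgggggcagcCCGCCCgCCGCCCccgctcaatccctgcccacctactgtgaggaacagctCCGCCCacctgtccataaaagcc
Col18a1 (chr10:77166531-77166780, - strand): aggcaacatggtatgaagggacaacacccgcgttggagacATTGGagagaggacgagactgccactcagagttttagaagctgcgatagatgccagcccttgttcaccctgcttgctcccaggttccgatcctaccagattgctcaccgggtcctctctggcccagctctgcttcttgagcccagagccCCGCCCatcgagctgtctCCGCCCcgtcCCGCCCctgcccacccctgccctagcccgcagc
Both type VIII windows held 4 GC boxes and no octamer, TATAAA or CCAAT. The Col18a1 window held 3 GC boxes and 1 CCAAT box, and a second Col18a1 start in the table had none of the 4 motifs in its window.

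The remaining classes differed less. Col12a1, which decorates fibril surfaces and belongs to the fibril-associated collagens with interrupted helices (FACIT), was called with the replicate block in 1 of its 4 probe sets (1427391_a_at, 0.26, adjusted p = 0.017, against 0.231). Of its others, 1445751_at differed by 0.09. Col23a1, a transmembrane collagen, differed by 0.14 in 1440911_at (adjusted p = 0.313) and by 0.09 in 1429209_at. Col7a1, the anchoring fibril chain, and Col16a1, Col22a1 and Col25a1 differed by -0.09 to 0.05 and were called in neither fit.

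**Figure D2:**
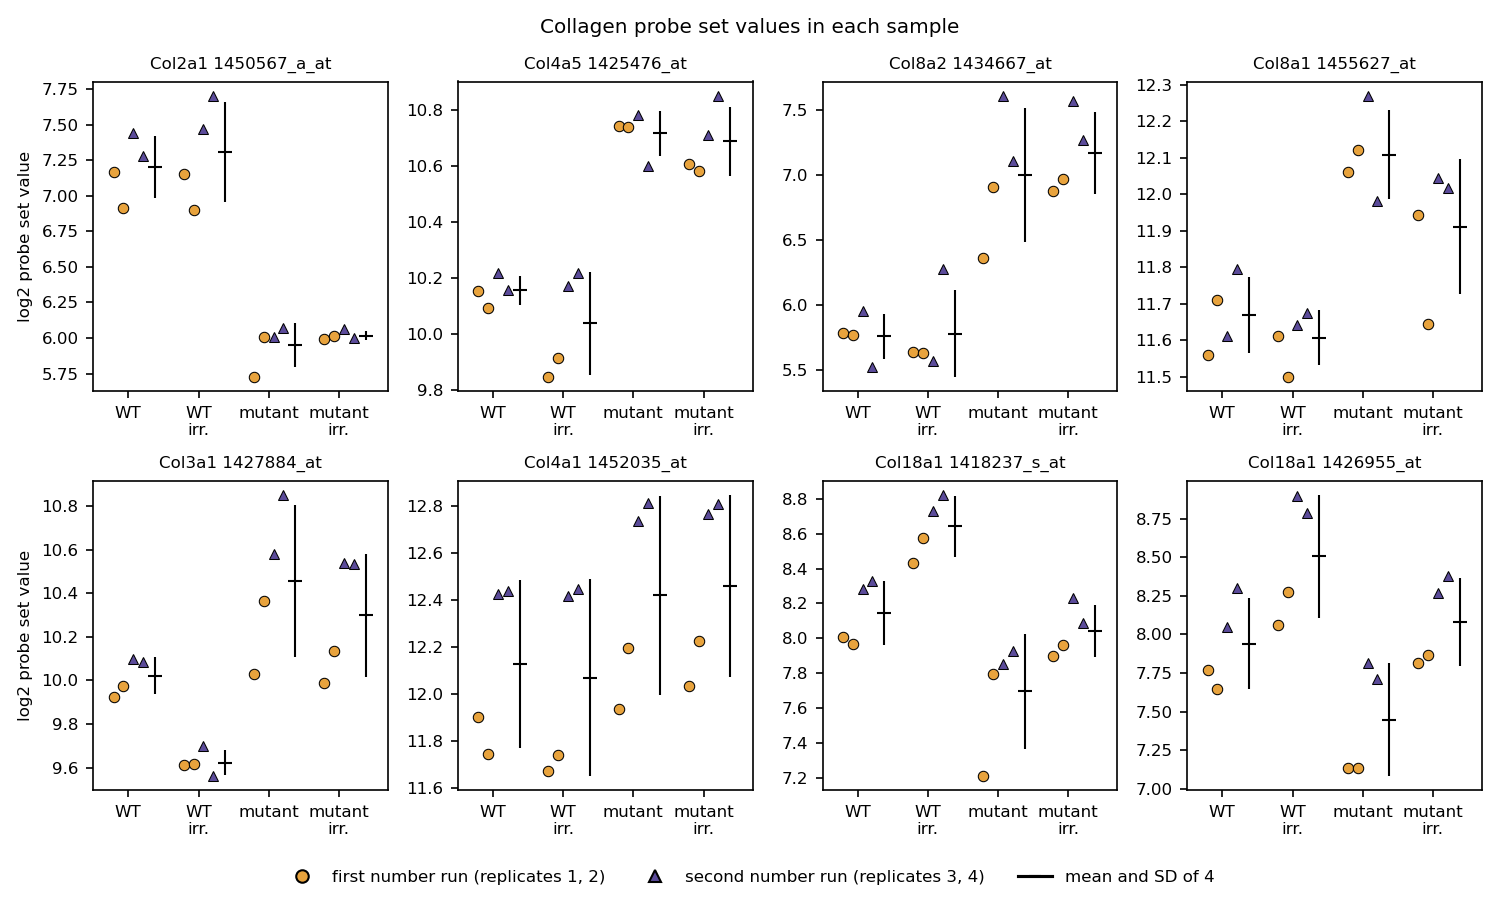
Log2 values of 8 collagen probe sets in each of the 16 RNA extracts, by group (WT, wild type; irr., irradiated), with circles for replicates 1 and 2, triangles for replicates 3 and 4, and the mean and SD of each group of 4. Col2a1, Col4a5 and Col8a2 separate the genotypes in every sample, Col4a1 shifts with the number run as well, and both Col18a1 probe sets are lower in mutant and higher in irradiated cells.

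Col10a1, the chain of the network-forming type X collagen of hypertrophic cartilage, lay under the filter mark of array A with a mean of 4.34, and is described here because of its values. Its probe set 1422253_at read 4.89, 4.60, 4.25 and 3.90 in unirradiated and 5.79, 6.45, 4.43 and 5.02 in irradiated wild type samples. Mutant samples read 3.92, 3.75, 2.83 and 3.05 unirradiated and 4.27, 4.78, 4.04 and 3.50 irradiated. The mutant sample was lower in 8 of 8 pairs and the irradiated sample higher in 8 of 8, with overlap between the genotypes and between the irradiation states. In the fit with no filter it fell by 1.15 in mutant cells (SE 0.27, adjusted p = 0.0201), and the irradiation difference was 0.88 (SE 0.27, adjusted p = 0.0739). It also fell by 0.93 from the first to the second run (adjusted p = 8.49e-05).

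The genotype difference was also tested in each irradiation state. In unirradiated cells 4 collagen probe sets were called (2.16% of all probe sets were), and 18 with the replicate block (6.42% of all). The 4 were Col2a1 (-1.25, adjusted p = 0.000103), Col4a5 1425476_at (0.56, adjusted p = 0.00094), Col8a2 (1.24, adjusted p = 0.0342) and Col8a1 1455627_at (0.44, adjusted p = 0.0431). The Col8a2 call held only without wild type irradiated replicate 4 or mutant unirradiated 1 or irradiated 1, 2 or 3, and was lost without any other extract (adjusted p up to 0.0984). That of Col8a1 held only without wild type unirradiated 4, mutant unirradiated 4 or mutant irradiated 2 or 3 (adjusted p up to 0.143). Both calls were also lost with no filter (adjusted p = 0.0572 for Col8a2 and 0.0695 for Col8a1), quantile normalization (0.0502 and 0.185) and median centring (0.0562 and 0.12), and within each run. In irradiated cells 6 were called (2.09% of all), and 19 with the replicate block (6.03% of all).

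Those 6 were Col2a1 (-1.29, adjusted p = 7.05e-05), Col4a5 1425476_at (0.65, adjusted p = 0.000232), Col8a2 (1.39, adjusted p = 0.0166), Col3a1 1427884_at (0.68, adjusted p = 0.0169), Col15a1 (0.62, adjusted p = 0.0313) and Col18a1 1418237_s_at (-0.60, adjusted p = 0.0339). Leaving out 1 extract ended 4 of these calls. For Col8a2 it was wild type irradiated replicate 1, 2 or 3 or mutant irradiated 3 or 4 (adjusted p up to 0.0659), and for Col3a1 mutant irradiated 3 or 4 (up to 0.0666). For Col15a1 it was wild type irradiated 1, 2 or 3 or mutant irradiated 2, 3 or 4 (up to 0.0973), and for Col18a1 wild type irradiated 2, 3 or 4 or mutant irradiated 1, 2 or 4 (up to 0.0976). Processing ended 2 of them as well. Col15a1 was lost with quantile normalization (adjusted p = 0.0608) and median centring (0.065), and Col18a1 with both (0.0537 and 0.0549) and with no filter (0.0511). Within single runs, Col8a2 was lost in both, Col3a1 and Col18a1 in the first and Col15a1 in the second.

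Within the number runs, which share no sample, 43 of the 47 probe sets had a genotype difference of the same sign in both, 35 higher and 8 lower in mutant cells, which is 91.5%. Over all probe sets tested, 65.3% had the same sign. In the first run 16 collagen probe sets were called (6.33% of all probe sets), and in the second 25 (6.74% of all). All 5 type IV probe sets were called higher in each run, with medians of 0.33 and 0.40. Fibrillar probe sets had medians of 0.08 and 0.25, with 2 called higher and 1 lower in the first run and 9 higher and 1 lower in the second. The other collagens had medians of 0.09 and 0.19, beside medians over all probe sets of 0.03 in the first run and -0.0047 in the second.

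Col2a1 differed by -1.10 in the first and -1.44 in the second run, and Col8a2 higher by 1.07 and 1.55. Col18a1 1418237_s_at differed by -0.53 and -0.52, and Col4a5 1425476_at by 0.67 and 0.55. Col3a1 1427884_at was 0.35 higher in the first and 0.77 in the second run, and Col12a1 1427391_a_at 0.04 and 0.48. Col7a1 differed by 0.13 in the first run and was called lower in the second, where it fell by 0.31. In a test of the difference between the runs, chosen after seeing the data, 0 collagen probe sets were called for genotype by limma (12 at an unadjusted p under 0.05; 0.114% of all probe sets were called). For Col12a1 that difference was 0.44 (adjusted p = 0.18), for Col3a1 0.42 (adjusted p = 0.224) and for Col7a1 -0.44 (adjusted p = 0.295).

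**Figure D3:**
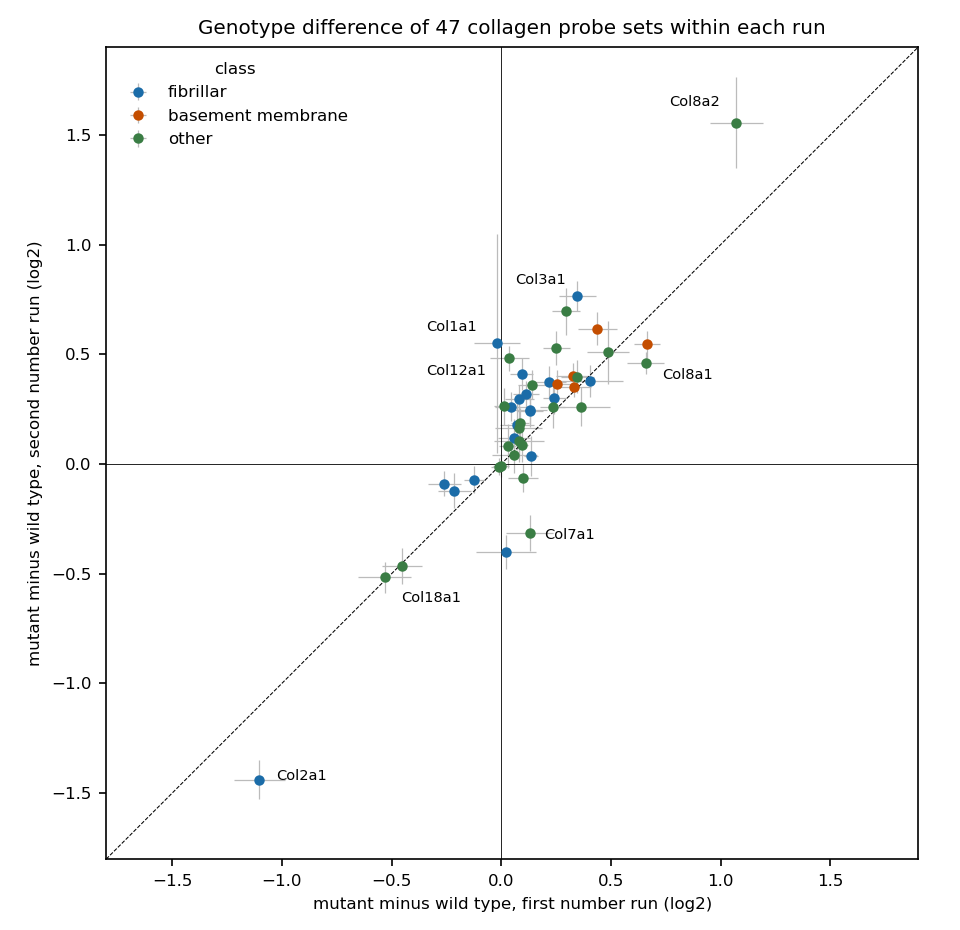
Genotype difference (log2, Oct-1 mutant minus wild type, averaged over irradiation) of each of the 47 collagen probe sets in the first number run against the second, coloured by class, with bars of 1 standard error and a dashed line of equal difference. Of the 47 points, 43 lie in the quadrants where both runs agree in sign; Col2a1 and Col8a2 lie at the ends and Col7a1 is among the 4 that do not.

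Irradiation changed few collagen genes. Averaged over genotype, the 2 Col18a1 probe sets rose and no other tested collagen probe set was called (2 of 47, 4.26%, against 7.51% of all probe sets). With the replicate block 4 were called (14.9% of all), since Col3a1 1427884_at and Col5a2 1450625_at fell. The median difference was 0.0028 over the collagen probe sets and 0.01 over all. Type IV probe sets had a median of -0.01 and fibrillar ones of -0.0018, and none of these was called without a block.

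Col18a1 1418237_s_at read 8.01, 7.97, 8.28 and 8.33 in unirradiated and 8.43, 8.57, 8.73 and 8.82 in irradiated wild type samples. In mutant cells it read 7.21, 7.79, 7.85 and 7.93 unirradiated and 7.90, 7.96, 8.23 and 8.09 irradiated. Within each genotype the irradiated sample was above the same-numbered unirradiated one in all pairs, 8 of 8, and only in wild type cells did the groups not overlap. Irradiation added 0.42 (SE 0.11, adjusted p = 0.0144), 1.34-fold.

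The other Col18a1 probe set, 1426955_at, read 7.77, 7.65, 8.05 and 8.30 in unirradiated and 8.06, 8.28, 8.90 and 8.79 in irradiated wild type samples, and 7.13, 7.13, 7.81 and 7.71 against 7.81, 7.87, 8.27 and 8.38 in mutant samples. It was higher after irradiation in 8 of 8 pairs, by 0.60 (SE 0.16, adjusted p = 0.018). Neither call was lost when any 1 extract was left out (adjusted p up to 0.0325 and 0.0406), and the differences were 0.47 and 0.58 in the first run and 0.37 and 0.62 in the second. Levels in irradiated mutant cells were 8.04 ± 0.15 and 8.08 ± 0.29 (SD, n = 4) for 1418237_s_at and 1426955_at, and those in unirradiated wild type cells were 8.14 ± 0.18 and 7.94 ± 0.29.

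Col3a1 1427884_at was lower after irradiation in 8 of 8 pairs. It fell by 0.28 (SE 0.11) and was called with the replicate block alone (adjusted p = 0.0111, against 0.101), and its other probe set differed by -0.04. Col5a2 1450625_at fell by 0.15 (adjusted p = 0.0495 with the replicate block, against 0.359). Among members called neither in the 7 comparisons nor between the number runs, the smallest p-values were those of Col1a2 1446326_at (-0.21, adjusted p = 0.547) and Col24a1 (0.03, adjusted p = 0.841) among fibrillar chains, and Col23a1 1429209_at (-0.15, adjusted p = 0.476) and Col12a1 1440101_at (-0.09, adjusted p = 0.645) among the others. Col27a1 1453191_at, called between the runs, differed by 0.17 after irradiation (adjusted p = 0.693). Within the first run 3 collagen probe sets were called (7.35% of all), and within the second 3 (4.44% of all). The test of the difference between the runs called 0 for irradiation by limma, with 4 at an unadjusted p under 0.05 (0.0406% of all probe sets were called).

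In wild type cells alone limma called 0 collagen probe sets for irradiation, with 3 at an unadjusted p under 0.05 (2.31% of all probe sets were called), and 3 with the replicate block (6.1% of all). Those were Col18a1 1426955_at (0.57, adjusted p = 0.00043), Col18a1 1418237_s_at (0.50, adjusted p = 0.00243) and Col3a1 1427884_at (-0.40, adjusted p = 0.0218). In mutant cells limma called 0, with 3 at an unadjusted p under 0.05 (2.67% of all), and 2 with the block, both of Col18a1 (0.64 and 0.35, adjusted p = 0.000147 and 0.021, 7.16% of all). The test of whether irradiation acted differently in the genotypes called 0 collagen probe sets by limma, with 0 at an unadjusted p under 0.05, and 0 with the block, as it did for 0% of all probe sets in either fit. The smallest unadjusted p belonged to Col1a1 1423669_at, with a difference of the effects of 0.19 (SE 0.15, adjusted p = 1).

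The number runs differed for most collagen genes. With the group means in the fit, 29 of 47 probe sets were higher and 3 lower in replicates 3 and 4 than in replicates 1 and 2, which is 68.1%. Over all probe sets 12.4% were called higher and 18.5% lower, 30.9% in either direction. The medians were 0.28 for fibrillar, 0.39 for type IV and 0.15 for other collagens, and 0.0064 over all probe sets. Values of the runs did not overlap for 7 probe sets, of Col1a1, Col1a2, Col4a1, Col4a2, Col5a1, Col5a2 and Col7a1. The share of all probe sets without overlap between the runs was not counted. Leaving out 1 extract left 30 to 33 called.

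Col4a1 1452035_at showed the smallest p, 0.67 higher in the second run (SE 0.04, adjusted p = 5.33e-09), with 11.67 to 12.22 in the first and 12.42 to 12.81 in the second run and no overlap. Col4a2 followed at 0.65, and Col4a1 1426348_at at 0.39. Col7a1 was 0.80 higher (SE 0.08), 1.74-fold, also without overlap between the runs. Further differences among fibrillar chains were 0.66 for Col11a1 1449154_at, 0.43 and 0.27 for Col1a2 1450857_a_at and 1423110_at, 0.41 for Col5a3, 0.38 for Col27a1 1453191_at and 0.22 to 0.33 for the 3 Col5a1 probe sets. Col5a2 was 0.28 and 0.32 higher, Col3a1 0.26 and 0.29, and Col2a1 0.27.

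Outside the fibrillar class, Col18a1 was 0.56 and 0.30 higher in the second run, Col8a1 1418440_at 0.54, Col15a1 0.25 and Col12a1 1434411_at 0.25. Type VI chains were 0.30 higher for Col6a1, 0.35 for Col6a2 1426947_x_at, 0.23 for Col6a3 and 0.35 for Col6a4 1445470_at. Probe sets of a gene disagreed in 3 cases. Col8a1 1418441_at fell by 0.22 and Col12a1 1427391_a_at fell by 0.38 in the second run, and Col4a5 1425475_at fell by 0.38 while 1425476_at was 0.13 higher, all called.

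Col1a1 differed between its probe sets, with 0.18 in 1423669_at (adjusted p = 0.0143) and 1.37 in 1455494_at (SE 0.27, adjusted p = 0.00058), the largest of the 47. The 1455494_at samples spanned 8.81 to 9.36 in the first and 9.62 to 12.60 in the second run, where the highest was mutant unirradiated replicate 4 and the other 7 reached 10.58 at most. On array A the Gapdh control's log2 signal at its 3 prime end minus that at its 5 prime end, a measure of RNA and labelling quality, also separated the runs, at -0.24 to -0.02 in the first and -0.0054 to 0.16 in the second. Between genotypes its medians were -0.04 in wild type and -0.0047 in mutant samples, and between irradiation states -0.04 without and 0.05 with irradiation. Its part in the differences between runs, genotypes and irradiation states was not tested.

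**Figure D4:**
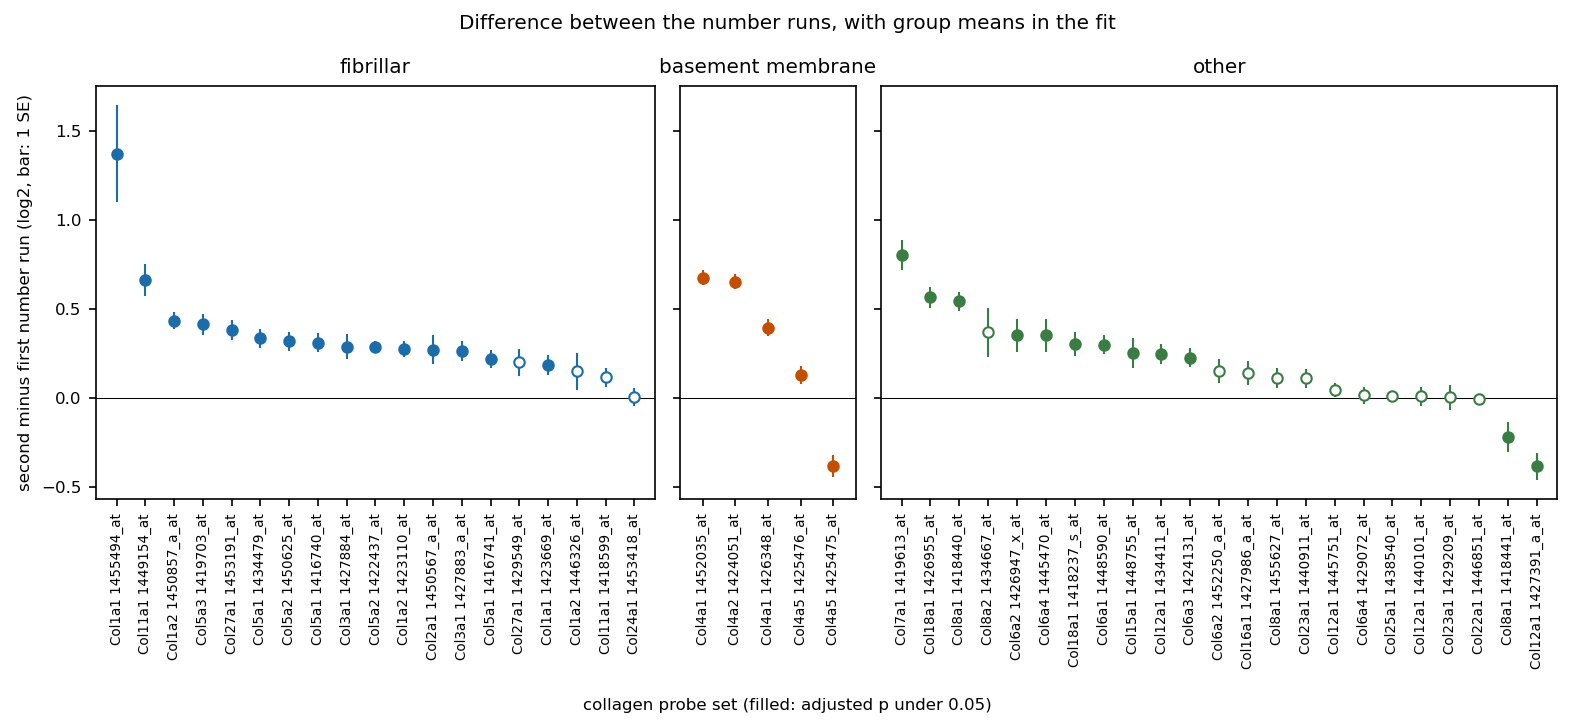
Difference between the number runs (log2, second minus first, with the 4 group means in the fit) of the 47 collagen probe sets by class, with bars of 1 standard error and filled points at an adjusted p under 0.05. Of the 47 points, 29 are filled above 0 and 3 below it, Col1a1 1455494_at stands highest at 1.37, and 2 of the 3 filled points below 0 lie in the class of other collagens.

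Genes that make, process or bind collagen were followed from 2 lists. Of 31 genes of collagen synthesis and processing, 27 were on the arrays and 24 were tested, with 1 probe set a gene. Between genotypes 3 were higher in mutant cells and 1 lower, and 8 higher and 1 lower with the replicate block, and the median difference was 0.12. Called in either direction were 6.26% of all probe sets without a block and 13.9% with it. Colgalt1, a collagen galactosyltransferase, was 0.35 higher (adjusted p = 0.00372), Crtap, a partner of prolyl hydroxylase P3h1, 0.25 (adjusted p = 0.0421), and Lox, which cross-links collagen, 0.23 (adjusted p = 0.000672). Tll1, a procollagen C-proteinase, fell by 0.26 (adjusted p = 0.0394). Irradiation raised Plod2, a lysyl hydroxylase of the telopeptides, by 0.54 (adjusted p = 0.00431). It was the only gene of the list called without a block, with 4 higher with the block. For irradiation 7.51% of all probe sets were called without a block and 14.9% with it. The counts of 1 and 4 of 24 lie near those shares.

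Of 10 collagen receptor and uptake genes, 9 were on the arrays and 6 were tested and 1 was called between genotypes (6.26% of all probe sets were). Itga1, the integrin chain that binds collagen with Itgb1, was 0.95 higher in mutant cells (SE 0.11, adjusted p = 0.000189), and with the replicate block Ddr1, a collagen-binding receptor kinase, was 0.15 higher as well (adjusted p = 0.039). Itga1 was also higher in unirradiated (0.94, adjusted p = 0.00975) and in irradiated cells (0.95, adjusted p = 0.00914), as was Lox (0.22, adjusted p = 0.0294, and 0.25, adjusted p = 0.0142). For irradiation limma called 0 of the 6 receptor genes, with 0 at an unadjusted p under 0.05 and 0 with the block, and Plod2 was called in mutant cells alone as well (0.63, adjusted p = 0.0298).

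Of the 10 fibroblast markers, 4 were higher in mutant cells, and 7 with the replicate block: Dcn, a proteoglycan that binds fibrils, by 2.01 (adjusted p = 2.67e-05), Lum, another one, by 1.46 (adjusted p = 0.00505), Fap by 0.76 (adjusted p = 0.0489) and Thy1 by 0.49 (adjusted p = 0.0293). The shares called for genotype over all probe sets were 6.26% without and 13.9% with the block. Not called without a block were Pdgfrb (0.37), Pdgfra (0.21), Twist1 (0.20), Fn1 (0.18), Prrx1 (0.10) and Vim (-0.01). The summed log2 level of the 10 fibroblast markers was 93.6 to 96.7 in wild type and 98.2 to 102.55 in mutant samples, without overlap. Dcn and Lum had the largest differences in this sum, so it does not stand for all the markers alike. No background was counted for the lack of overlap. Krt18, an epithelial keratin, was 0.46 higher (adjusted p = 0.0164). Its wild type means of 4.765 and 4.805 lay under the filter mark of 4.96, and it passed through its mutant means of 5.308 and 5.172. Epcam, the other epithelial marker tested, differed by 0.09 (adjusted p = 0.463), and Cdh1, Krt8 and Krt14 lay under the mark. The 5 epithelial markers summed to 23.6 to 24.5 in wild type and 24.1 to 25.2 in mutant samples. The part of these markers in the collagen differences was not tested. After irradiation the fibroblast markers Twist1 and Pdgfrb fell by 0.49 and 0.56 (adjusted p = 0.000921 and 0.0107). With the replicate block 3 were lower, since Prrx1 fell by 0.65 (adjusted p = 0.00028, against 0.0658). The shares called for irradiation over all probe sets were 7.51% without and 14.9% with the block.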

How the data were processed

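Values are those the authors deposited, 1 column a sample, on a log2 scale as judged from their range; how they were summarised and normalized was not given in the sources used here. Probe sets were named through the platform annotation, and 64 control probe sets were left out of each array type. Probe sets with a mean under the 40th percentile of their array type were dropped, leaving 13582 probe sets of array A, where the mark was 4.96, and 13502 of array B, where it was 3.36. Group means were fitted with limma 3.58.1 (R 4.3.3, lmFit and eBayes with a variance trend), with Benjamini-Hochberg adjustment within each array type and comparison. A call is an adjusted p under 0.05. Tables were made with Python 3.11.15. The 7 comparisons were genotype and irradiation in each state and averaged, and their interaction.

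The replicate numbers were used to pair the samples. Same-numbered samples deviated together from their group means (r = 0.32 to 0.72 with median 0.58 on array A, and 0.24 to 0.60 with median 0.44 on array B). For differently numbered samples within a run the median r was nearly as high, at 0.56 (A) and 0.40 (B). These values thus show samples of a run varying together, and hardly set same-numbered pairs apart from others of their run. Across runs r was -0.71 to -0.27 (A) and -0.59 to -0.18 (B). Deviations from a group mean cancel within each group, so r across runs has to be negative where r within runs is positive. The negative values are thus no separate observation. The number for mutant unirradiated replicate 1 is missing from its array A label, and it was numbered in accession order.

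Named were all collagen probe sets called, and, in each class and averaged comparison, the 2 others with the smallest p; Col10a1 was added after its values were seen. Lists used 1 probe set a gene, that with the highest percentile of its mean. The members and lists were chosen with earlier results of these data known. The test of differences between number runs was chosen after seeing the data. Alternatives were other filters, normalizations and variance models, blocks, single runs, 1 probe set a gene and leaving out each extract. Only the fit without a block was tested on simulated data, with independent noise, no run effect and changes in irradiated wild type samples alone. Promoters are from RefSeq (GRCm38.p6).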

Additional observations from a re-analysis of the deposited data

Results flagged for a closer look

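In 8 of 188 groups of 4 samples (4.26%), 1 sample lay apart from the other 3 by more than Dixon's 95% critical value for the gap as a share of the range. Chance gives about 1 in 20 groups.

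Col1a1 1455494_at read 12.602 in mutant unirradiated replicate 4, with the others of its group at 9.208 to 9.621. Col8a2 read 6.28 in wild type irradiated replicate 4, above 5.576 to 5.639. Col6a3 read 11.909 in mutant irradiated replicate 3, above 11.537 to 11.565. Col8a1 1418441_at read 8.607 in mutant irradiated replicate 1, above 7.977 to 8.06. Col23a1 1429209_at read 6.044 in wild type unirradiated replicate 1, above 5.724 to 5.739.

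Among probe sets with low values, Col6a4 1429072_at read 4.516 in wild type unirradiated replicate 4, above 4.434 to 4.441. Col6a4 1445470_at read 3.634 in wild type irradiated replicate 1, below 4.028 to 4.1. Col12a1 1440101_at read 3.537 in mutant irradiated replicate 2, below 3.656 to 3.67.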

How the results depend on the processing

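No probe set called in a comparison changed its direction there under any alternative run. Called or not, 4 of 47 probe sets had opposite signs in the 2 runs for averaged genotype and 15 for averaged irradiation. The averaged genotype comparison called 14 collagen probe sets, against 29 with the replicate block, 29 with the number run as a block, 25 within the second run and 8 with 1 probe set a gene and array type (8 of 30, 26.7%, against 14 of 47, 29.8%). In unirradiated cells 4 became 18 with either block, 13 within the second run and 2 with no filter, and in irradiated cells 6 became 19 with the replicate block, 20 with the run block and 12 within the second run. The averaged irradiation comparison called 2, against 4 with either block and 1 of 30 with 1 probe set a gene and array type. In wild type cells 0 became 3 with either block, 1 within the first run and 3 within the second, and in mutant cells 0 became 2 with either block, 2 within the first run and 1 within the second. The replicate block also raised the share called over all probe sets, for averaged genotype from 6.26% to 13.9%. The genotype and irradiation counts with the run block, no filter or 1 extract left out have no such share beside them here. Nor have those of single states within a run, so a rise in these counts is not particular to collagen genes. The replicate block changed no other call named here.

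Leaving out 1 extract gave 10 to 16 calls for the averaged genotype comparison, 2 to 5 in unirradiated and 2 to 8 in irradiated cells. It gave 2 to 3 for averaged irradiation, 0 to 1 in wild type cells (1 without mutant unirradiated replicate 1) and 0 in mutant cells.

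The type IV median fell from 0.37 to 0.0959 with no filter for averaged genotype and from 0.392 to 0.0991 in irradiated cells, where the added probe sets lie under the filter mark. The median of the other collagens moved from 0.0993 to 0.224 within the second run and 0.193 with the 60th percentile filter in unirradiated cells, and from 0.178 to 0.0688 with no filter in irradiated cells. Other causes were not tested. Of the 82 collagen probe sets, 35 lay under the filter mark and were tested only in the fit with no filter.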
